A study of Mus musculus with 2 samples.

Results

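Mitochondrial ribosomal proteins were examined in regenerating mouse liver with and without a knockout of miR-182-5p. The genes were all rows of the deposited table whose symbol is Mrpl or Mrps followed by a number and at most 1 further letter. This gave 77 of 34745 listed genes, of which 48 are named for the large subunit of the mitochondrial ribosome and 29 for the small subunit. All 77 had at least 10 read counts over both libraries and were therefore among the 13561 genes compared. RNA was taken from the liver of male mice, 8 to 10 weeks old, at day 3 after 2/3 partial hepatectomy (2/3 PH), an operation after which the remaining liver regrows. The KO library came from mice labelled miRNA-182 KO, which by the methods of the study carry the knockout on 1 allele only. The WT library came from wild-type mice with the same operation, and no library of unoperated liver is part of the comparison. Each genotype had 1 library, and the number of mice behind each is not given in the sources used here.

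Mitochondria translate the mRNAs of their own genome on a ribosome of their own, and the proteins made there are core subunits of the respiratory chain and of ATP synthase. The ribosomal RNAs come from the mitochondrial genome, whereas the ribosomal proteins are encoded in the nucleus, made in the cytosol and imported. Some descend from the proteins of the bacterial ribosome, and others are found only in mitochondria.

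Depth was nearly equal, at 13247497 counts (KO library) and 13163348 counts (WT library). The 13 mitochondrial protein-coding mRNAs held 51.7% of the counts for the KO and 31.0% for the WT library. Libraries were therefore scaled by TMM, which limits the weight of the most counted genes and gave factors of 0.812 (KO) and 1.23 (WT). The median log2 fold change over all genes compared, KO over WT, was 0.00 with TMM and −0.60 with total counts. With 1 library a genotype, no difference below has a replicate check, and no p-value for the genotypes can be given. The intervals given with a log2 fold change, named or in brackets, are exact 95% Clopper-Pearson intervals, and they cover counting error only. All 7 hepatocyte markers were detected in both libraries, with a summed scaled level of 50541 per 1000000 for the KO and 50098 for the WT library. The single markers went both ways, from a log2 fold change of −0.63 to 0.23. The interval lay below 0 for 3 of them, above 0 for 3, and held 0 for 1. *Mir182* itself was not analysed here, and the labels were thus not checked against the targeted gene.

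Most mitoribosomal protein mRNAs were lower in the KO library, by a modest amount, in both subunits. Raw counts were lower in the KO library for 75 of the 77 genes, or 97.4%, against 80.5% of all genes compared. The exceptions were *Mrpl14* and *Mrps21*. After TMM scaling, 59 of the 77 genes lay below 0 on the log2 fold change scale, against 6778 of the 13561 genes compared, and the median was −0.31. The counting interval lay below 0 for 38 of the 77 and above 0 for 9, against 26.2% and 25.8% of all genes. It held 0 for 30 of the 77. The shift was not uniform, since the genes ranged from a log2 fold change of −1.61 for *Mrpl44* to 1.13 for *Mrpl14*. In bulk liver, fewer cells of a type and less RNA per cell cannot be told apart.

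Together, the 77 genes held 20608 KO and 34428 WT counts. Their share of all counts was 0.156% (0.153% to 0.158%) for the KO and 0.262% (0.259% to 0.264%) for the WT library. Leaving out the mitochondrial mRNAs, which took a larger part of the KO library, the share was 0.322% (0.317% to 0.326%) against 0.379% (0.375% to 0.383%). All genes compared had a median log2 fold change of −0.60 on the first base and −0.09 on the second. Part of the lower share was thus common to the median gene. The intervals of the shares do not overlap on either base, but they too cover counting error only. Without replicate libraries they hold no spread between mice, and the difference in share between the genotypes was not tested.

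**Figure D1:**
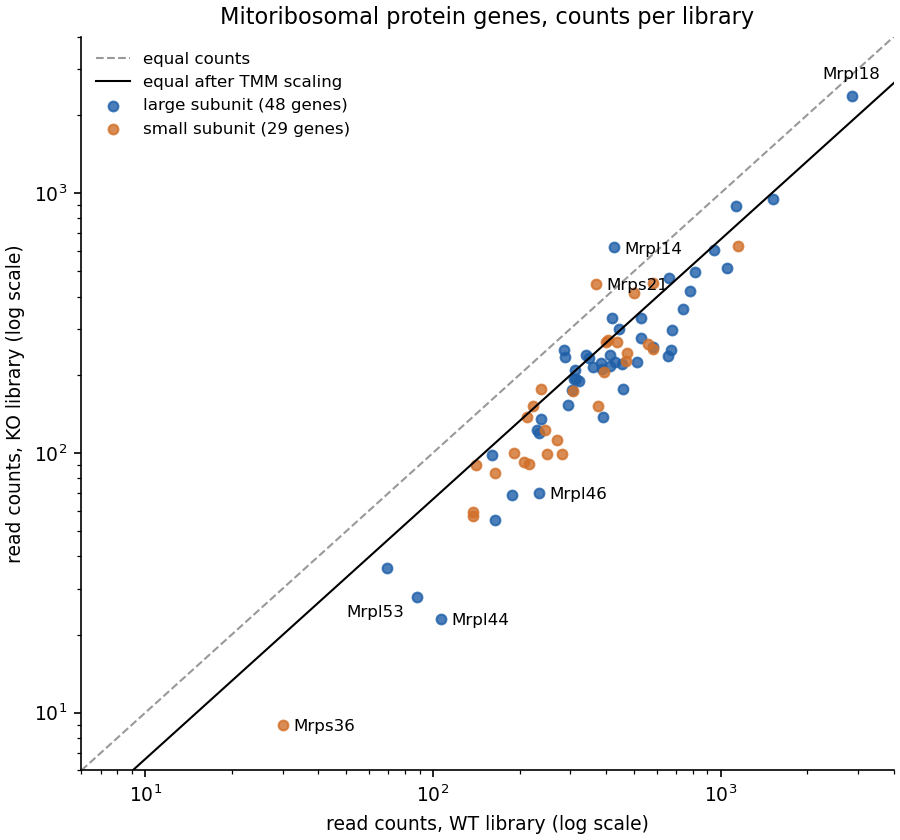
Read counts of the 77 mitoribosomal protein genes in the WT library (x axis) and the KO library (y axis), both on log scales, with 1 point per gene coloured by subunit. Below the dashed line of equal counts lie 75 genes, and the solid line marks equal level after TMM scaling, with 59 genes below it.

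Among the 48 large subunit genes, the median log2 fold change was −0.25, and 37 lay below 0, against 6778 of the 13561 genes compared. Past 1.5-fold, 12 genes (25%) were lower in the KO library, against 19.4% of all genes compared, and 1 gene (2.08%) was higher, against 18.7%. Past 2-fold, 3 genes were lower and 1 was higher, against 9.94% lower and 9.46% higher among all genes. At the 1.5-fold limit with TMM, the share of lower genes was thus near the background and that of higher genes was below it. The counting interval lay below 0 for 22 of the 48 genes (45.8%), against 26.2% of all genes, and above 0 for 6, against 25.8%.

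*Mrpl44*, a mitochondria-specific protein with a ribonuclease III-like fold, had the lowest log2 fold change of all members. It lies at chr1:79776018-79781445 (GRCm38) and had 23 KO and 107 WT counts (log2 fold change −1.61, interval −2.34 to −0.97). *Mrpl46*, a protein of the central protuberance, the crest of the large subunit near the tRNAs, had 70 KO and 234 WT counts (log2 fold change −1.14, interval −1.56 to −0.76). Its gene (chr7:78775236-78783531) overlaps *Mrps11* on the other strand over 12.2% of its exonic bases, and the counting is not stated to use strand. *Mrpl53*, another mitochondria-specific protein, had 28 KO and 88 WT counts (log2 fold change −1.05, interval −1.73 to −0.43). Its gene lies at chr6:83109040-83109939, and all of its 51-base words recur in the overlapping gene model *Gm42688*, so its count is uncertain. All 3 had at most 70 counts in the KO library, and all 3 intervals lay wholly below 0.

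The next lowest were *Mrpl32* and *Mrpl35*, both counterparts of bacterial proteins. *Mrpl32*, which the m-AAA protease of the inner membrane has to trim before assembly, had 55 KO and 164 WT counts (log2 fold change −0.98, interval −1.45 to −0.54). *Mrpl35* had 137 KO and 389 WT counts (log2 fold change −0.91, interval −1.20 to −0.63). For neither gene did shared sequence exceed 3% of its words, and both intervals lay wholly below 0.

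At the other end, *Mrpl14*, the counterpart of a bacterial protein at the interface between the subunits, had 619 KO and 425 WT counts (log2 fold change 1.13, interval 0.95 to 1.32). It was the only member past 2-fold in that direction. Its gene (chr17:45686322-45698495) shares 11.2% of its exonic bases with *Tmem63b* on the other strand, which had 362 and 555 counts. *Mrpl23* had 250 KO and 286 WT counts (log2 fold change 0.40, interval 0.15 to 0.65), but 66.6% of its words recur in the pseudogene *Mrpl23-ps1*. *Mrpl18* had 2367 KO and 2861 WT counts (log2 fold change 0.32, interval 0.24 to 0.40). *Mrpl15* stood at 0.30 (0.04 to 0.55) from 235 and 288 counts, and *Mrpl33* at 0.26 (0.04 to 0.47) from 332 and 419 counts. All but *Mrpl15* of these 5 genes share over 10% of exonic bases or words with another gene. *Mrpl14* alone had more raw counts in the KO library, and with total counts as the scale the other 4 had log2 fold changes from −0.34 (*Mrpl33*) to −0.20 (*Mrpl23*).

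Summed over the 48 genes, there were 14874 KO and 24486 WT counts (log2 fold change −0.13, interval −0.16 to −0.10). *Mrpl18* alone held 15.9% of the large subunit counts for the KO and 11.7% for the WT library, and without it the summed log2 fold change was −0.20.

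Small subunit genes showed the same direction. The median log2 fold change of the 29 genes was −0.36, and 22 lay below 0, against 6778 of the 13561 genes compared. Past 1.5-fold, 9 genes (31.0%) were lower in the KO library and 1 (3.45%) was higher, against the same backgrounds of 19.4% and 18.7%. Past 2-fold, 1 gene was lower and 0 were higher, against 9.94% and 9.46% of all genes. The counting interval lay below 0 for 16 genes (55.2%) and above 0 for 3, against 26.2% and 25.8% of all genes.

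The small subunit gene past 2-fold was *Mrps36*, with 9 KO and 30 WT counts (log2 fold change −1.11, interval −2.40 to −0.03). Despite its name, its protein is known as a subunit of the 2-oxoglutarate dehydrogenase complex, and 35.6% of the words of the gene (chr13:100735955-100744659) recur in the pseudogene *Mrps36-ps1*. It was the member with the fewest counts, and its interval almost reached 0.

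Among genes with more counts, *Mrps16*, a counterpart of a bacterial protein, had 99 KO and 280 WT counts (log2 fold change −0.90, interval −1.25 to −0.57). *Mrps18c* had 99 KO and 249 WT counts (log2 fold change −0.74, interval −1.09 to −0.40), with 23.2% of its exonic bases inside another gene model. *Mrps14*, a protein of the head of the subunit, had 151 KO and 376 WT counts (log2 fold change −0.72, interval −1.01 to −0.45). These 3 genes were past 1.5-fold lower but not past 2-fold. *Mrps12*, the counterpart of the bacterial protein at the decoding centre, had 57 KO and 138 WT counts (log2 fold change −0.68, interval −1.15 to −0.23). *Mrps6* had 112 KO and 269 WT counts (log2 fold change −0.67), and shares 32.2% of its words with the gene model *Gm49711*. All 5 intervals excluded 0.

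*Mrps21*, the counterpart of a bacterial small subunit protein, was the small subunit gene furthest in the other direction. It had 446 KO and 370 WT counts (log2 fold change 0.86, interval 0.66 to 1.06). Its gene lies at chr3:95862634-95871519, and 13.5% of its words recur in the pseudogene *Gm6181*. *Mrps34* had 414 KO and 502 WT counts (log2 fold change 0.31, interval 0.12 to 0.50), but 77.8% of its exonic bases lie opposite exons of *Mapk8ip3*, which had 750 and 745 counts. *Mrps15* had 452 KO and 581 WT counts (log2 fold change 0.23, interval 0.05 to 0.41). *Mrps27*, a pentatricopeptide repeat protein, stood at 0.16 (−0.12 to 0.45) and *Mrps9*, a protein of the head, at 0.04 (−0.27 to 0.34), and neither was distinguishable from 0 at this depth.

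**Figure D2:**
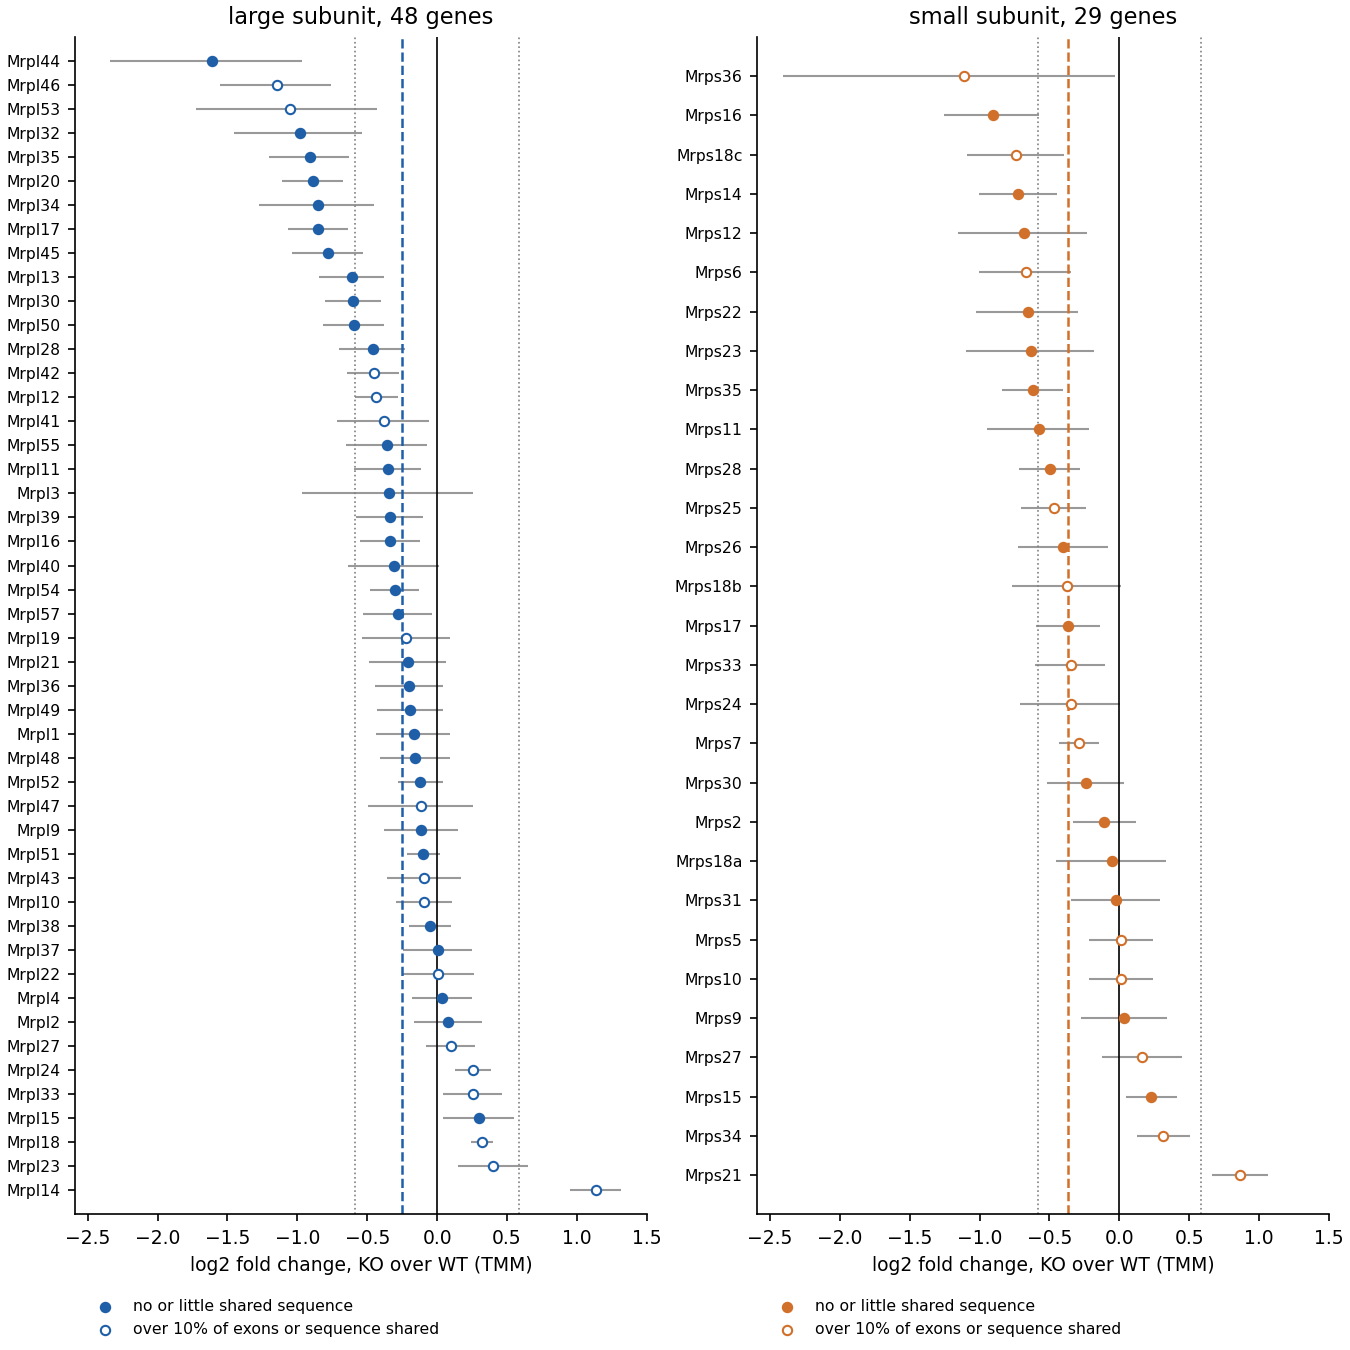
Log2 fold change (KO over WT, TMM-scaled counts, x axis) of each large subunit gene (left) and small subunit gene (right), with exact 95% counting intervals as bars. The coloured dashed lines are the medians (−0.25 and −0.36), the dotted lines mark 1.5-fold, and open circles are the 29 genes with over 10% of exons or sequence shared with another gene.

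The median of the large subunit was 0.11 higher than that of the small subunit on the log2 scale. The ranges overlapped over most of their length, from −1.61 to 1.13 for the large and from −1.11 to 0.86 for the small subunit. With 1 library a genotype, the difference between the subunits could not be tested. A few proteins carry a name that does not match their place. *Mrps18a* and *Mrps30* are known to sit in the large subunit, and their log2 fold changes were −0.06 (−0.45 to 0.34) and −0.24 (−0.52 to 0.03). Placing them there and leaving out *Mrps36* gave a difference of 0.14 between the medians. The 3 Mrps18 genes did not share a value, with *Mrps18b* at −0.37 (−0.77 to 0.02) between *Mrps18a* and *Mrps18c*.

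Members that share exons or sequence with another gene are given apart. Of the 77 genes, 29 had over 10% of their exonic bases or 51-base words in common with another gene. These had a median log2 fold change of −0.11, with 12 of 29 above 0. The other 48 had a median of −0.34, with 6 of 48 above 0 and 0 past 1.5-fold in that direction. The genes past 1.5-fold higher in the KO library, *Mrpl14* and *Mrps21*, belong to the first group. *Mrpl14*, with 11.2% of exonic bases, and *Mrps21*, with 13.5% of words, both lie near the 10% cut. Leaving out the sharing genes was an alternative chosen after seeing the data. How reads in shared stretches were assigned is not given in the sources used here, and its part in these values was not tested.

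Grouped by origin, all 4 classes had a median below 0, and their counts past 1.5-fold stand beside 19.4% lower and 18.7% higher among all genes. *Mrps18a*, *Mrps30* and *Mrps36* were placed in none of these classes. Of the 30 large subunit proteins with a bacterial counterpart, 7 were lower and 1 was higher past 1.5-fold, with a median log2 fold change of −0.20. Of the 19 mitochondria-specific large subunit proteins, 5 were lower and 0 higher, with a median of −0.30. This list includes *Mrpl58*, a peptidyl-tRNA hydrolase that rescues stalled ribosomes, which is listed under its older symbol *Ict1* and had 159 KO and 263 WT counts (log2 fold change −0.13, interval −0.43 to 0.16). In the small subunit, 5 of 16 bacterial-type proteins were lower and 1 was higher, with a median of −0.36, and 3 of 10 mitochondria-specific proteins were lower and 0 higher, with a median of −0.39.

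By place in the ribosome, most structures held genes on either side of 0. In the stalk, which recruits translation factors, *Mrpl12* had 516 KO and 1051 WT counts (log2 fold change −0.43, interval −0.59 to −0.28). *Mrpl11*, at the base of the stalk, had 224 KO and 431 WT counts (log2 fold change −0.35, interval −0.59 to −0.12). *Mrpl10*, which anchors *Mrpl12*, had 330 KO and 530 WT counts (log2 fold change −0.09, interval −0.29 to 0.11). Thus the interval of *Mrpl10* held 0 and those of its partners did not. Around the exit tunnel, where the new protein leaves, the 6 genes ranged from −0.85 for *Mrpl17* and −0.78 for *Mrpl45*, which tethers the ribosome to the inner membrane, to 0.26 for *Mrpl24* and 0.40 for *Mrpl23*. In the central protuberance, the 6 genes ranged from −1.14 for *Mrpl46* to 0.32 for *Mrpl18*. In the head of the small subunit, 6 of 8 genes lay below 0, from −0.72 for *Mrps14* to 0.04 for *Mrps9*.

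Levels per gene length differed widely between members, which are ranked here by the mean of both libraries. On the deposited FPKM scale, *Mrpl18* was the highest member in each library, at 80.1 for the KO and 97.4 for the WT library. Next in the large subunit came *Mrpl42*, at 40.6 and 84.4 FPKM, and *Mrpl54*, at 27.9 and 52.3 FPKM. The lowest large subunit genes were *Mrpl3* at 0.352 and 0.679 FPKM, *Mrpl15* at 1.40 and 1.73 FPKM, and *Mrpl47* at 1.46 and 2.40 FPKM. The protein of *Mrpl3* is the counterpart of a bacterial protein that helps to form the peptidyl transferase region. In the small subunit, *Mrps28* (25.4 and 54.3 FPKM), *Mrps7* (19.9 and 36.9 FPKM) and *Mrps16* (13.2 and 37.6 FPKM) were highest. *Mrps36* (0.258 and 0.865 FPKM), *Mrps18a* (1.26 and 1.99 FPKM) and *Mrps9* (1.45 and 2.14 FPKM) were lowest. Within the KO library alone some neighbours changed places, with *Mrpl14* (29.3 FPKM) above *Mrpl54*, *Mrpl44* (0.752 FPKM) below *Mrpl15*, *Mrps21* (21.1 FPKM) above *Mrps7*, *Mrps15* (16.6 FPKM) above *Mrps16* and *Mrps17* (1.33 FPKM) below *Mrps9*. The highest member exceeded the lowest by 311-fold in the KO library and 144-fold in the WT library. The lowest was *Mrps36*, from 9 counts, in the KO library and *Mrpl3* in the WT library, so these ratios rest on different genes. The order was alike in both libraries, with a Spearman rho of 0.96 over 77 genes whose values share gene lengths and libraries.

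The order of levels depended on the gene length behind it. The length implied by the deposited FPKM exceeded the merged exon length of GENCODE M21 for 59 of the 77 genes. Recomputed as counts per kilobase of merged exons per 1000000 counts, *Mrpl18* remained first, at 128 for the KO and 155 for the WT library. *Mrpl42* moved from rank 2 to rank 23 of the large subunit, at 7.34 and 15.3 counts per kilobase per 1000000, and *Mrps16* from rank 3 to rank 15 of the small subunit, at 2.60 and 7.40. *Mrps21* moved from rank 4 to rank 1 of the small subunit, at 45.6 and 38.0. *Mrpl3* and *Mrps36* remained the lowest of their subunits by the mean of both libraries. The fold changes between the libraries do not depend on this length.

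**Figure D3:**
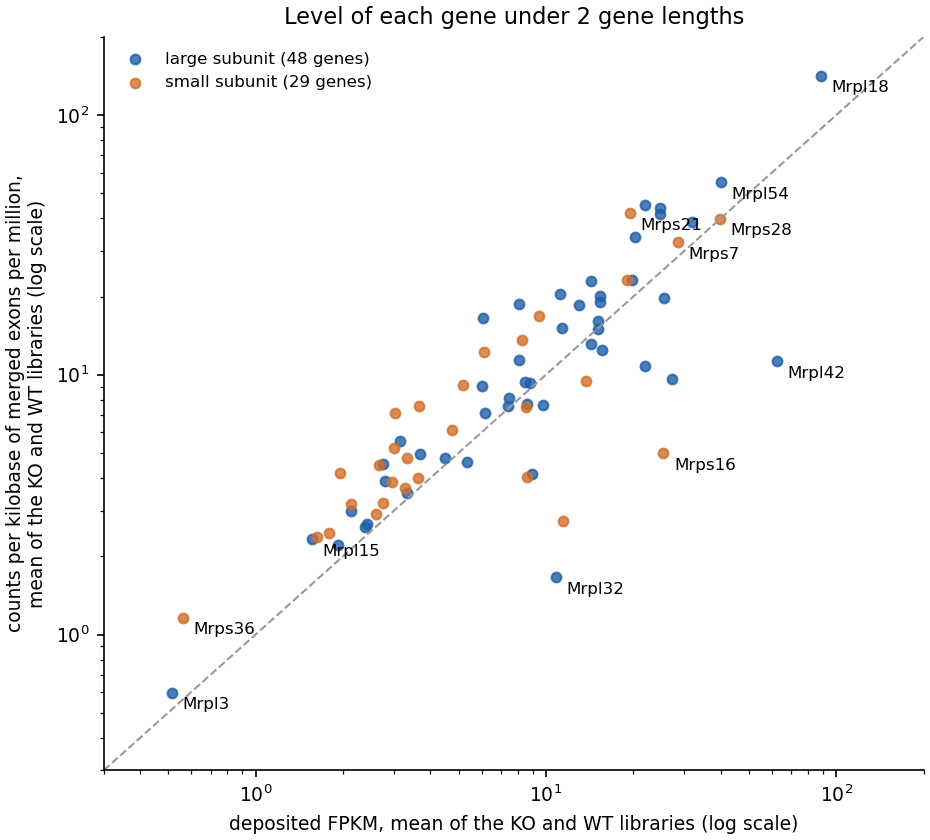
Mean level over the KO and WT libraries for each of the 77 genes, as deposited FPKM (x axis) and as counts per kilobase of merged exons per 1000000 counts (y axis), both on log scales, with 1 point per gene coloured by subunit. Points far below the dashed line of equality, such as *Mrpl42*, *Mrps16* and *Mrpl32*, are genes whose FPKM rests on a length shorter than their merged exons.

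Sites of the targeted miRNA were sought in the 3′ UTRs of the members. A miRNA usually lowers mRNAs whose 3′ UTR pairs with its seed, bases 2 to 8. The mature miR-182-5p (RefSeq, GRCm38.p6, minus strand of chromosome 6) is shown with its seed in capitals, beside the 2 member 3′ UTRs that hold the full 8-base match, with the match in capitals.
mmu-miR-182-5p: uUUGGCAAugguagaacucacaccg
Mrpl53: ttaaatatttaTTGCCAAAtgaa
Mrpl17: ggaagcttttgTTGCCAAAagtggacctct

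The 8-base match TTGCCAAA was thus present in 2 of 77 members (2.60%), against 4.99% of 12494 protein-coding genes with a 3′ UTR. A 7-base match, TTGCCAA or TGCCAAA, both of which lie within the 8-base word, was present in 9 members (11.7%), against 19.5%. Member 3′ UTRs are short, with a median of 387 bases against 1131 bases, and the shares were not adjusted for length. Both genes with the 8-base match were lower in the KO library, *Mrpl53* at −1.05 and *Mrpl17*, with 248 and 674 counts, at −0.85 (−1.07 to −0.64). *Mrpl17* lies at chr7:105806658-105811099. The 9 genes with a 7-base match had a median log2 fold change of −0.47, with 8 of 9 below 0, and the other 68 had a median of −0.28, with 51 below 0. The gene above 0 among the 9 was *Mrpl15*.

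Promoters were searched for words of 3 factors known to act on nuclear genes of mitochondria. RefSeq promoters, from 250 bases before to 50 bases after the start, were matched for 68 of the 77 members, and both strands were read. The NRF1 word CGCATGCG, which reads the same on both strands, was in 7 members (10.3%), against 4.32% of 9602 protein-coding genes. The ETS word CCGGAAGT, which GABP binds, was in 12 members (17.6%), against 8.83%. The YY1 word AAGATGGC was in 12 members (17.6%), against 5.14%. A match to letters is a description and does not show binding. The stretches with the NRF1 word before the start are shown because NRF1 is the factor best known for nuclear genes of mitochondria. The word is in capitals, and coordinates are those of GRCm38.p6.
Mrpl9 (chr3:94443298-94443327, + strand): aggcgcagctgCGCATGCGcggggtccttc
Mrpl10 (chr11:97041436-97041465, + strand): gcccagctccaCGCATGCGcatagcggccc
Mrpl17 (chr7:105811088-105811108, − strand): ccgagttactgCGCATGCGtc
Mrpl22 (chr11:58171621-58171650, + strand): gcctcggactgCGCATGCGtatagtcagcc
Mrpl32 (chr13:14613105-14613134, − strand): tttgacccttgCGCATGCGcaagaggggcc
Mrpl32, nearer the start (chr13:14613042-14613071, − strand): ggcggacttaaCGCATGCGctcagcccgcg
Mrpl39 (chr16:84735350-84735379, − strand): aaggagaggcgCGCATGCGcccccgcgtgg
Mrps18b (chr17:35916646-35916675, − strand): aaacggcccgaCGCATGCGcactgggagca

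The words lay from 10 bases (*Mrpl17*) to 224 bases (*Mrps18b*) before the start, and *Mrpl32* held 2 copies. The 7 genes with the NRF1 word had a median log2 fold change of −0.34, from −0.98 for *Mrpl32* to 0.01 for *Mrpl22*. The 12 genes with the ETS word had a median of −0.11, and the 12 with the YY1 word a median of −0.32. The 39 members with a matched promoter and none of these words had a median of −0.35. *Mrpl44*, *Mrpl46*, *Mrpl53*, *Mrps21* and *Mrpl14* were among the 39. Of the factors themselves, *Nrf1* had 101 KO and 137 WT counts (log2 fold change 0.15, interval −0.23 to 0.53). *Gabpa*, the DNA-binding subunit of GABP, had 56 KO and 150 WT counts (log2 fold change −0.82, interval −1.30 to −0.38), whereas *Gabpb1*, its partner subunit, had 106 KO and 33 WT counts (log2 fold change 2.26, interval 1.70 to 2.89).

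Members often lie head to head with another gene. A protein-coding neighbour on the other strand, with its start at most 1000 bases upstream, was found for 18 of 77 members (23.4%), against 10.1% of protein-coding genes compared. Pairs whose starting ends overlap, such as *Mrpl46* and *Mrps11*, were not counted. The member and its neighbour had the same sign of log2 fold change in 7 of 18 pairs, and the member was the lower of the pair in 14. *Mrpl32* and its neighbour *Psma2*, a proteasome subunit, were both lower in the KO library, at −0.98 and −0.51 (−0.67 to −0.34). *Mrps12* stood at −0.68, whereas its neighbour *Sars2*, the mitochondrial seryl-tRNA synthetase, stood at 0.44 (0.05 to 0.83). *Mrps34* stood at 0.31 and its neighbour *Eme2* at −1.58 (−1.99 to −1.20).

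The mRNAs that these ribosomes translate stood in the other direction. All 13 mitochondrial protein-coding mRNAs were past 2-fold higher in the KO library with TMM. They had a median log2 fold change of 1.34 and ranged from 1.02 for *mt-Nd3* and 1.04 for *mt-Nd6* to 1.53 for *mt-Nd4l* and 1.55 for *mt-Nd5*. Per count on a mitoribosomal protein gene, there were 332 counts on the mitochondrial mRNAs for the KO and 118 for the WT library, a ratio of 2.81 that no scaling enters. With total counts as the scale the 13 mRNAs had a median of 0.74, with 11 past 1.5-fold and 0 past 2-fold (highest *mt-Nd5* at 0.95), while both subunit medians were more negative.

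Other genes of mitochondrial translation had no common direction, and the counts of their lists past 1.5-fold are again to be read beside 19.4% lower and 18.7% higher among all genes. The 5 mitoribosomal proteins without an Mrp name ranged from *Chchd1*, with 76 and 228 counts and a log2 fold change of −0.99 (−1.39 to −0.61), and *Ptcd3* at −0.75 (−1.10 to −0.42), through *Dap3* at 0.07 and *Gadd45gip1* at 0.13, to *Aurkaip1* at 0.80 (0.64 to 0.97). Among 25 assembly genes, 5 were lower and 3 higher past 1.5-fold, with a median log2 fold change of −0.04. *Mettl15*, which methylates the small ribosomal RNA, stood at −1.30 and *Malsu1*, an assembly factor that binds *Mrpl14*, at −1.01, whereas the pseudouridine synthase gene *Trub2* stood at 1.60 and the ribosomal RNA methyltransferase gene *Mrm3* at 1.23. Among 11 translation factors, 2 were lower and 0 higher, with a median of −0.01. The elongation factor genes *Tufm*, with 208 and 621 counts, and *Gfm1*, with 177 and 401 counts, had log2 fold changes of −0.98 (−1.22 to −0.76) and −0.59 (−0.85 to −0.33), and the initiation factor genes *Mtif2* and *Mtif3* stood at 0.48 and 0.40.

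Among 20 genes that charge mitochondrial tRNAs, 3 were lower and 1 was higher, with a median log2 fold change of 0.11. The lowest was *Yars2* at −1.89 (−2.58 to −1.28), and the highest were *Vars2* at 1.09 (0.79 to 1.41) and *Hars2* at 0.53. Among 18 genes of mitochondrial DNA and RNA synthesis, 1 was lower and 1 higher, with a median of 0.05. *Tfam*, which packages mitochondrial DNA and starts its transcription, had 135 KO and 310 WT counts (log2 fold change −0.61, interval −0.91 to −0.31). *Polrmt*, the mitochondrial RNA polymerase, stood at 0.11 (−0.14 to 0.35), *Top1mt* at −0.50, and the RNA processing genes *Pnpt1* and *Trmt10c* at 0.84 and 0.50. Of 9 regulators, 2 were lower and 3 higher, with a median of 0.15. *Myc* stood at −0.88 (−1.47 to −0.33), *Ppargc1a* at −0.34 (−0.98 to 0.27) and *Ppargc1b* at 0.97 (0.25 to 1.73).

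Nuclear genes of the cytosolic ribosome and of the respiratory chain had medians near those of the members. Counts past 1.5-fold in the lists below are also to be read beside 19.4% lower and 18.7% higher among all genes. The 77 cytosolic ribosomal protein genes compared had a median log2 fold change of −0.24, with 19 lower and 3 higher past 1.5-fold. The 104 nuclear genes that the authors' annotation assigns to oxidative phosphorylation, which include subunits of the vacuolar proton pump, had a median of −0.21, with 17 lower and 5 higher. The 13 genes of general mitochondrial content had a median of −0.32, with 3 lower and 1 higher. The porin gene *Vdac1* stood at −0.72 and the chaperone gene *Hspa9* at −0.71, whereas *Phb* stood at 0.07 and *Immt*, an organiser of the inner membrane, at 1.44. The difference between these groups and the mitoribosomal proteins could not be tested with 1 library a genotype.

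Marker lists of other cells also differed between the libraries. All 6 proliferation markers were lower in the KO library, at a median of −1.04 on the log2 scale and a summed scaled level of 135 per 1000000 for the KO and 225 for the WT library. All 5 Kupffer cell markers were lower, with a median of −0.86 and summed levels of 107 and 148 per 1000000, and 4 of 5 endothelial markers (64.5 and 77.3 per 1000000) and 4 of 5 stellate cell markers (72.4 and 99.5 per 1000000) lay below 0. In these 4 lists no marker was at 0 counts. Cholangiocyte markers summed to 11.3 and 9.68 per 1000000, neutrophil markers to 41.7 and 36.1, and lymphocyte markers to 5.02 and 1.54, and *Cd3e* and *Ly6g* were at 0 counts in at least 1 library. Erythroid markers summed to 73.2 and 59.6 per 1000000 but did not share a direction, with *Alas2* at 1.22 (1.02 to 1.42) and the globin genes *Hba-a1* at −0.56 (−0.82 to −0.31) and *Hbb-bs* at −1.05 (−1.48 to −0.64). The part of these differences in the values of the members was not tested.

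**Figure D4:**
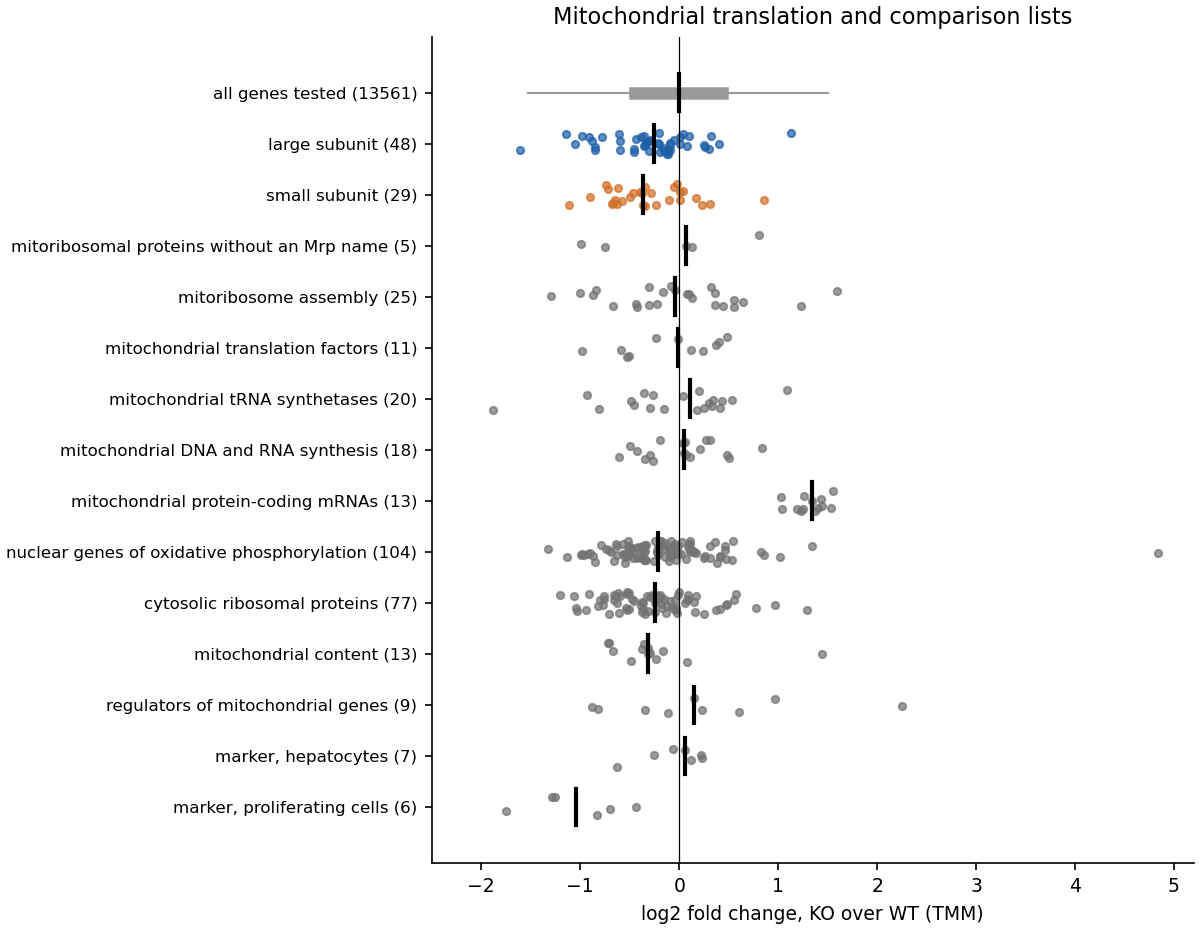
Log2 fold change (KO over WT, TMM-scaled counts, x axis) for the genes of each list, with 1 point per gene, the number of genes compared in brackets, and a black line at each median. For all genes, the thick and thin grey bars are the middle 50% and 90%, and the 13 mitochondrial mRNAs all lie above 1, opposite in direction to both subunit medians.

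The number of members past a fold depended on the scale. With total counts, which leave the larger mitochondrial share of the KO library in place, 39 of 48 large subunit genes and 24 of 29 small subunit genes were lower past 1.5-fold, together 81.8%, and 0 were higher, against 50.7% lower and 7.64% higher among all genes. The medians were then −0.85 and −0.97, which is lower than the median of all genes on that scale, −0.60, by about as much as with TMM. A change of scale moves all genes by nearly the same amount, so this gap could not change.

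**Figure D5:**
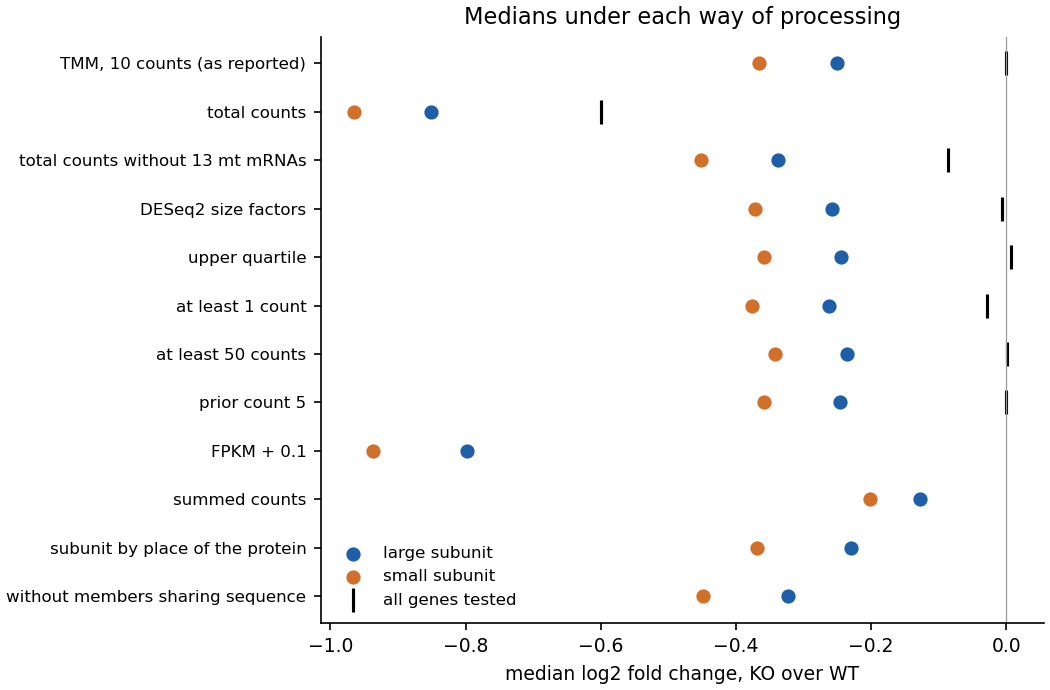
Median log2 fold change (KO over WT, x axis) of the large subunit and small subunit genes under each way of processing, with the median of all genes as a black line where it was computed. Both medians lie below 0 and the small subunit lies below the large subunit under all 12 settings, which share the same libraries. Settings that differ only in scaling shift both subunits alike, so the order of the subunits was fixed in advance there.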

How the data were processed

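Liver RNA of both genotypes, 1 library each, had been sequenced by the authors after 2/3 PH. The deposited read counts per gene are whole numbers without normalization, and the deposited FPKM were computed by the authors from them with a gene length that is not stated. The submitters' processing notes name HISAT2 2.0.4, StringTie and edgeR, without roles, and the build hg38, whereas the coordinates in the table are those of mouse GRCm38 (58 of 77 members have the locus of GENCODE M21).

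A gene was compared if its counts in the KO and WT libraries summed to 10 or more (13561 genes). Counts were scaled by TMM (edgeR 4.0.16, R 4.3.3), and log2 fold changes were taken with a prior count of 0.5. A gene was counted as lower or higher past 1.5-fold or 2-fold, with no p-value. Depth was 13247497 and 13163348 counts. Exact 95% intervals were computed in R for single genes and with scipy 1.17.1 for summed counts and shares. Shared sequence was measured in 51-base words of the longest M21 transcript, and neighbours and 3′ UTRs were taken from M21. The steps were tested on simulated counts with few changed genes, as many raised as lowered, and no spread between mice. The simulation did not model the difference in mitochondrial share, so it does not check the scaling for libraries like these. Of the list genes, 5 were matched by identifier under an older symbol.

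Named members are those past 2-fold, the 5 highest and 5 lowest log2 fold changes with at least 50 counts and the 3 highest and 3 lowest FPKM of each subunit, the 3 stalk genes, and genes whose name and place differ. In other lists, the extremes and a few regulators are named, except for genes not reported here. Further members were named after their values were seen. The members and lists were chosen with earlier results of these data known. Alternatives were other scalings (DESeq2 1.42.0, upper quartile, total counts), count minimums, prior counts, FPKM with a pseudocount of 0.1, summed counts, and edgeR's exact test with an assumed coefficient of variation.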

Additional observations from a re-analysis of the deposited data

How the results depend on the processing

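The direction of both subunit medians and of their difference (0.07 to 0.14) was kept under all alternatives run, and the medians moved by less than the counting error of the summed counts with DESeq2 size factors, the upper quartile, the other count minimums and a prior count of 5. A change of scaling alone moves every gene by nearly the same amount. The difference between the subunits could therefore not change under the other scalings, and these are no check of it. The large and small subunit medians were −0.85 and −0.97 with total counts, −0.80 and −0.94 with FPKM, −0.34 and −0.45 with total counts without the 13 mitochondrial mRNAs, −0.13 and −0.20 from summed counts, and −0.32 and −0.45 without members sharing exons or sequence, an alternative chosen after seeing the data. Past 1.5-fold, 39 large and 24 small subunit genes were lower with total counts and 38 and 22 with FPKM, and 0 were higher with either. Past 2-fold, 15 and 13 were lower with total counts, 15 and 12 with FPKM, and 0 large subunit genes were higher with either. With total counts the median of all genes was −0.60, and 50.7% of them were lower past 1.5-fold. Shares of all genes were not computed past 2-fold with total counts, at either fold with FPKM, or for the intervals with total counts. Those counts are therefore not read as a result about the members. Mrps36 was the small subunit gene past 2-fold, and with a minimum of 50 counts or a prior count of 5 the count was 0. The counting interval lay below 0 for 46 and 28 genes and above 0 for 1 and 1 with total counts. The exact test of edgeR was also run with a coefficient of variation set to 0.2 or 0.4, a spread that these libraries cannot measure. Almost no member was called in either direction, and the share of all genes called was not computed. Among members named by the rule stated above, 8 genes changed sign with total counts and FPKM. They were Mrps9 (−0.56 and −0.53) and Mrps27 (−0.44 and −0.43), whose intervals held 0 with TMM, and Mrpl15 (−0.30 and −0.28), Mrpl18 (−0.28 and −0.28), Mrpl23 (−0.20 and −0.20), Mrpl33 (−0.34 and −0.33), Mrps15 (−0.37 and −0.37) and Mrps34 (−0.29 and −0.28). Of the members named after their values were seen, Mrpl22 (−0.59) and Mrpl24 (−0.35) also changed sign with total counts. The TMM interval of Mrpl22 held 0, and that of Mrpl24 (0.13 to 0.38) did not. Mrps9 was also below 0 (−0.05) with total counts without the 13 mitochondrial mRNAs. No paired analysis was possible because there is a single KO and a single WT library, and no replicate could be left out for the same reason.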
